A study of Mus musculus with 12 samples.

Results

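Gene expression was compared between imiquimod cream and sham cream in gamma delta T cells of NF-kB1-deficient mice. The samples were taken by their labels alone: 3 libraries of cells from NF-kB1-deficient mice given imiquimod cream and 3 from NF-kB1-deficient mice given sham cream, 6 of the 12 libraries in the study. All mice were of the C57BL/6 strain. The sorted cells carried the Vg4 and Vd4 receptor chains and came from lymph nodes that drain the skin. The other 6 libraries were 3 of wild-type mice under sham cream and 3 of wild-type mice under imiquimod cream. They entered the same fit and add to its estimate of the spread. Otherwise they serve here only to show where the deficient cells differ. The sources used here do not give age, sex, the amount of cream, the days of treatment or the way NF-kB1 was removed. They also leave unsaid whether NF-kB1 was missing from the T cells alone or from all cells, and whether replicates are separate animals. P-values therefore rest on a spread between libraries, which may be technical. That spread was estimated over all 12 libraries and moderated towards a trend shared by genes of like abundance. The fit had 8 residual degrees of freedom against a median of 145 from that trend. A gene's p thus reflects the shared spread more than the spread of its own 6 deficient libraries.

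Imiquimod activates Toll-like receptor 7 on myeloid and dendritic cells, and cream put on mouse skin causes an inflammation that resembles psoriasis. Gamma delta T cells bearing the Vg4 chain are a main source of interleukin 17 in that inflammation, and they divide in the draining lymph nodes before they move to the skin. NF-kB1 is made as the precursor p105, which restrains other NF-kB subunits and is processed to p50. The p50 subunit pairs with RelA or c-Rel to switch genes on, and as a pair with itself it can hold them down.

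Values are normalized read counts of 3' tags on the linear scale, written here as normalized values, and a gene with no value is described as listed at 0. Summed values ran from 31878 to 34855 in the 3 sham libraries and from 32104 to 33571 in the 3 imiquimod libraries. Steps between low values put the depth at about 47422, 29112 and 27139 reads in sham replicates 1, 2 and 3, and at about 67075, 45961 and 51166 reads in imiquimod replicates 1, 2 and 3. The imiquimod libraries were thus deeper on average, without separation from the sham libraries (two-sided exact permutation p = 0.2, the smallest possible with 3 against 3 being 0.1). Genes above 0 numbered 3828, 2888 and 3838 under sham and 5182, 3651 and 4051 under imiquimod. In sham replicate 1 and all 3 imiquimod libraries 1 read was worth less than 1 and no gene stood at 1 read, so a listed 0 there can hide a read. The part of depth in the values below was not tested. On the first principal component of these 6 libraries sham replicate 2 lay at 52.0 and sham replicate 3 at -27.3, with the other 4 between -9.60 and -4.09. List medians that moved by over 1.5 times without sham replicate 2 are therefore also given without it.

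In NF-kB1-deficient cells no gene passed the test between imiquimod and sham. Of 1571 genes whose normalized values averaged at least 5 across the 12 libraries, 0 (0%) had a limma adjusted p under 0.05, the threshold for a call. An unadjusted p under 0.05 was reached by 53 genes, or 3.37% of those tested, 33 of them higher under imiquimod (2.1%) and 20 lower (1.27%). That balance depended on the settings: with a pseudocount of 10 it was 27 higher and 36 lower, and in a fit of the 6 deficient libraries alone 35 and 48. The 3 imiquimod values lay wholly above the 3 sham values in 96 genes (6.11%) and wholly below them in 88 (5.6%), together 11.7%. The log2 fold change, taken on log2(normalized value + 1), had a median of 0.14 and was positive for 880 genes, or 56%. Its quartiles were -0.51 and 0.79. Single genes are described below by their values, and a difference that is called higher or lower without a limma adjusted p did not pass the adjustment.

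**Figure D1:**
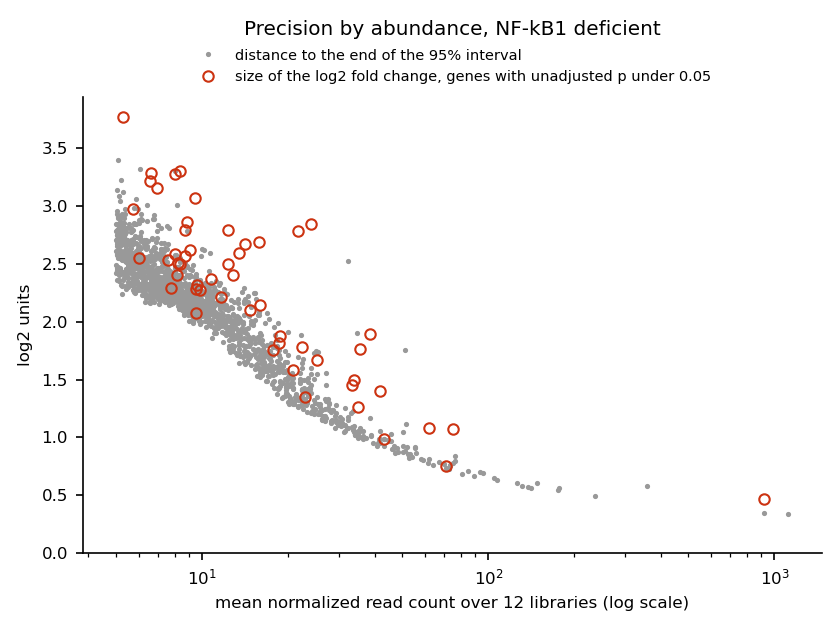
Precision of the imiquimod response in NF-kB1-deficient cells. The horizontal axis is the mean normalized read count over 12 libraries (log scale) and the vertical axis is in log2 units; grey points give the distance from each gene's estimate to either end of its 95% interval and red circles the size of the log2 fold change of the 53 genes with an unadjusted p under 0.05. These distances have a median of 2.35 in the class with a mean of 5 to 10 and 0.58 in the class of at least 100.

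How small a response could be seen depended on abundance, as the plot of interval widths shows. The distance from a log2 fold change to either end of its 95% interval had a median of 2.21 over all 1571 genes. It was 2.35 in the 902 genes with a mean of 5 to 10, 1.94 in the 427 genes of 10 to 20, 1.24 in the 195 genes of 20 to 50, 0.81 in the 34 genes of 50 to 100 and 0.58 in the 13 genes of at least 100. Only 22 genes had an interval that lay within 1 log2 unit of 0 on both sides, and 251 had one within 2 units. For the other genes these libraries left room for a change of 4-fold or more in at least 1 direction.

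Among those 22 were several genes that define the cells or serve as their common housekeepers. B2m, the light chain of MHC class I, stood at 172, 121 and 139 under sham and at 215, 177 and 154 under imiquimod, a log2 fold change of 0.34 (95% interval -0.24 to 0.91). H2-K1, an MHC class I heavy chain, was at 110, 158 and 169 under sham and at 184, 159 and 163 under imiquimod (0.23, interval -0.38 to 0.84). Both genes overlapped between the groups. Tcrd, the locus of the delta receptor chain, was at 72.8, 66.1 and 40.3 under sham and 62.8, 53.5 and 58.9 under imiquimod (0.01, interval -0.85 to 0.87). The actin gene Actb gave 118, 153 and 130 against 123.1, 97.0 and 99.9 (-0.33, interval -0.89 to 0.24). Ncl, the nucleolar protein nucleolin, gave 75.7, 70.1 and 74.2 against 72.4, 53.4 and 61.1 (-0.24, interval -0.96 to 0.47). For these genes the intervals bound any change to less than 2-fold in either direction.

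The lowest p among all genes belonged to Pik3r1, which encodes p85 alpha, the regulatory subunit that holds and recruits the catalytic subunit of class I PI3 kinase (Entrez 18708, GRCm38 chromosome 13, 101680761 to 101768217). Its normalized values were 62.7, 54.2 and 42.2 under sham and 8.26, 2.79 and 10.7 under imiquimod. Every imiquimod library lay far below every sham library. Mean values were 53.0 ± 10.3 and 7.25 ± 4.05 (SD, n = 3 each). The log2 fold change was -2.84 ± 0.78 (SE), with a limma adjusted p = 0.597. A fit of the 6 deficient libraries alone called the gene, with a limma adjusted p = 0.00678, and it was the single gene called there. Leaving out any 1 of these 6 libraries gave a log2 fold change between -3.17 and -2.36. In wild-type cells the fold change was -2.16, and the difference between genotypes was -0.68 (limma adjusted p = 0.867).

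Because the mice lack an NF-kB subunit, the RefSeq promoters (GRCm38.p6, the 250 bases before an annotated start) were searched for the NF-kB consensus on both strands, overlapping matches included. Of the 53 genes with an unadjusted p under 0.05, 41 had a promoter in the table and 6 of these (14.6%) held a match, against 150 of 1262 tested genes (11.9%) and 2225 of 27025 genes in all (8.23%). By direction it was 3 of 26 genes higher under imiquimod and 3 of 15 lower. The promoters of Pik3r1 and Tagln2, the lower genes with the lowest p, are shown with that of Nfkbia, whose product I kappa B alpha is the textbook NF-kB target and inhibitor. Capitals mark the match. Pik3r1 has a second RefSeq start with no match in its window. A match is a string of letters in these windows and was not measured as a binding site.
Pik3r1, chr13:101768218-101768467, minus strand: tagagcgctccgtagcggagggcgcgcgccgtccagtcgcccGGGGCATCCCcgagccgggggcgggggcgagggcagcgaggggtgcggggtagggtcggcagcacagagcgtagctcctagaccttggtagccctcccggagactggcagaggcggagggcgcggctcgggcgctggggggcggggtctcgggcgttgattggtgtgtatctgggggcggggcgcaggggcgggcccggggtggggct
Tagln2, chr1:172499996-172500245, plus strand: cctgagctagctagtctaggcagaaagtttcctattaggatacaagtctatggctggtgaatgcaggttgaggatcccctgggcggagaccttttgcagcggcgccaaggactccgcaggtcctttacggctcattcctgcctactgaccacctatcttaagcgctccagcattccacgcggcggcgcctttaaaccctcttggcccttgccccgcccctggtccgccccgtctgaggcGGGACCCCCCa
Nfkbia, chr12:55492648-55492897, minus strand: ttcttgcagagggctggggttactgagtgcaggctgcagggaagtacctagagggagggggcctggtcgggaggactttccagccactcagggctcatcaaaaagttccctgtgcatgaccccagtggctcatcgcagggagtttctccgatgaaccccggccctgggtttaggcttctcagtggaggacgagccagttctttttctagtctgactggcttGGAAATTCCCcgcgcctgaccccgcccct

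Other genes of PI3 kinase and receptor signalling were mostly without separation. Of 10 tested genes of the PI3 kinase, Akt and mTOR list, 4 were positive and 6 negative, 1 (Pik3r1) had an unadjusted p under 0.05, and the median log2 fold change was -0.30 against 0.14 over all genes. Among all genes tested, 56% were positive and 3.37% reached that p. The summed value of that list was 278, 209 and 162 under sham and 147, 180 and 200 under imiquimod, which overlap.

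In the list of proximal T cell receptor signalling, 10 of 22 tested genes were positive and 12 negative, with a median of -0.21, or 0.01 without sham replicate 2. Vav1, an exchange factor that links the receptor to Rac and the cytoskeleton, was at 10.8, 9.85 and 41.9 under sham and 2.5, 5.78 and 0 under imiquimod (-2.62 ± 1.22, limma adjusted p = 0.996). It was the single member with an unadjusted p under 0.05, a p that 3.37% of all genes tested reached. Lck, the kinase that starts receptor signalling, was at 63.8, 29.6 and 28.1 under sham and at 26.8, 17.6 and 16.6 under imiquimod (-0.89 ± 0.76). Its groups did not overlap, although the highest imiquimod value lay close to the lowest sham value.

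Isg20, an interferon-induced RNA exonuclease, was at 20.6, 16.4 and 21.4 under sham, and under imiquimod it was listed at 0 in replicates 1 and 3 and stood at 8.38 in replicate 2. The groups were separate, with a log2 fold change of -3.27 ± 1.23 (limma adjusted p = 0.956). The type I interferon list as a whole did not follow it: 14 of 21 tested members were positive, 7 were negative, Isg20 was the single one with an unadjusted p under 0.05, and the median was 0.37. Among all genes tested, 56% were positive and 3.37% reached that p. Summed values of the list were 655, 497 and 459 under sham and 505, 540 and 480 under imiquimod. MHC class I and peptide loading genes gave 7 positive and 6 negative of 13, with a median of 0.12, or -0.11 without sham replicate 2. Tapbpl, a peptide-editing relative of tapasin, had the lowest p in that list and was at 0, 28.5 and 7.55 under sham and 2.10, 0 and 0 under imiquimod.

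Actin-binding genes stood on both sides. Of 35 tested members of the list, 21 were positive and 14 negative, and the median was 0.33, or 0.18 without sham replicate 2. An unadjusted p under 0.05 was reached by 3 higher and 2 lower genes. Over all genes tested 56% were positive, and 2.1% were higher and 1.27% lower at that p. Tagln2, the actin-binding protein transgelin 2 (Entrez 21346, chromosome 1, 172500246 to 172507375), was at 38.6, 43.8 and 78.0 under sham and at 14.3, 13.3 and 15.6 under imiquimod. The imiquimod libraries lay close together and below every sham library, with means of 53.5 ± 21.4 and 14.4 ± 1.15 (SD, n = 3 each). The log2 fold change was -1.76 ± 0.55 (limma adjusted p = 0.650). Pfn1, or profilin 1, which delivers actin monomers to growing filaments, was at 15.4, 31.8 and 5.03 under sham and at 4.51, 0 and 0 under imiquimod (-3.07 ± 1.18, limma adjusted p = 0.956). Its lowest sham and highest imiquimod values nearly met.

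A further 3 actin regulators were higher under imiquimod. Cnn2, the actin-binding protein calponin 2 (Entrez 12798, chromosome 10, 79988600 to 79995400), was at 18.4, 0 and 1.26 under sham and 17.0, 23.1 and 31.8 under imiquimod. Sham replicate 1 overlapped the imiquimod group, and the log2 fold change was 2.78 ± 0.86 (limma adjusted p = 0.650). Cfl1, or cofilin 1, which severs actin filaments, was at 19.5, 4.93 and 18.2 under sham and at 34.5, 43.3 and 32.0 under imiquimod, without overlap (1.49 ± 0.56, limma adjusted p = 0.956). Both Cnn2 and Cfl1 were lowest in sham replicate 2, and without it their log2 fold changes were 1.87 and 0.91. Arpc3, a subunit of the Arp2/3 complex that branches actin, was named after its values were seen. It stood at 2.21, 3.28 and 2.52 under sham and at 19.5, 16.8 and 14.3 under imiquimod, with no overlap. The summed value of the whole list was 1149, 931 and 1113 under sham and 986, 963 and 1178 under imiquimod.

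**Figure D2:**
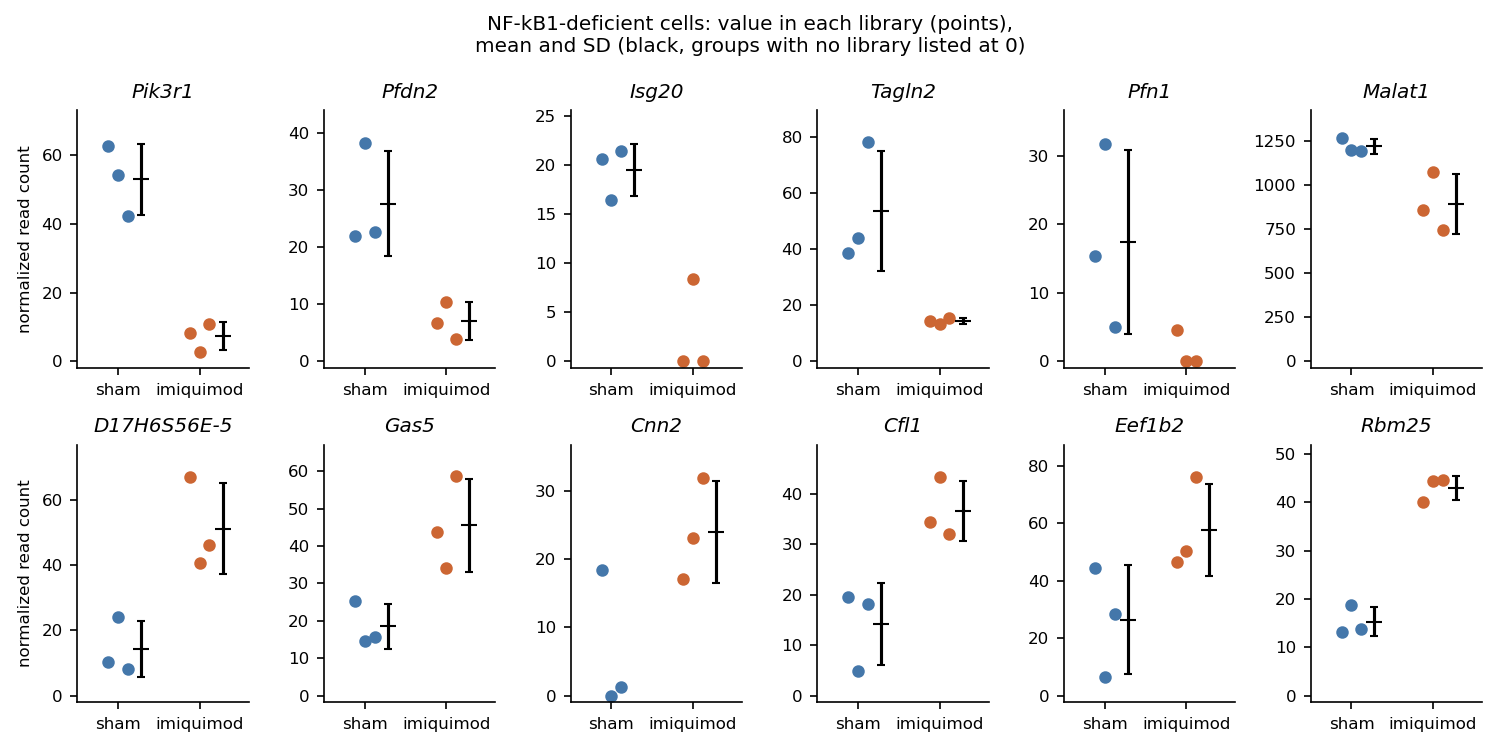
Normalized read counts of 12 genes in the 6 NF-kB1-deficient libraries. Each panel has its own linear axis from 0; blue points are sham and orange points imiquimod libraries, and black bars give the mean and SD where no library of a group is listed at 0. In the top row imiquimod values lie below sham values, as for Pik3r1 (8.26, 2.79 and 10.7 against 62.7, 54.2 and 42.2), and in the bottom row they are higher, with sham replicate 1 of Cnn2 inside the imiquimod range.

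Proteins that bind RNA were among the genes with the lowest p in both directions. Rbm25, a splicing regulator (Entrez 67039, chromosome 12, 83632208 to 83683127), was at 13.2, 18.7 and 13.8 under sham and at 40.1, 44.4 and 44.6 under imiquimod. These groups were tight and well apart, with means of 15.3 ± 2.99 and 43.0 ± 2.57 (SD, n = 3 each) and a log2 fold change of 1.45 ± 0.55 (limma adjusted p = 0.956). Larp4b, which binds messenger RNA and promotes translation, was at 14.0, 2.19 and 0 under sham and 23.5, 26.9 and 14.3 under imiquimod (2.59 ± 0.96). Serbp1, an RNA-binding protein found on ribosomes, was at 49.3, 94.7 and 131 under sham and at 66.1, 26.5 and 35.7 under imiquimod. Imiquimod replicate 1 of Serbp1 lay within the sham range, and the log2 fold change was -1.08 ± 0.39 (limma adjusted p = 0.956). Pabpn1, the nuclear poly(A)-binding protein, was at 63.2, 56.9 and 49.7 under sham and at 49.6, 21.7 and 16.2 under imiquimod. Its groups touched, since the highest imiquimod value nearly equalled the lowest sham value. Rnmt, the messenger RNA cap methyltransferase, was at 8.09, 9.85 and 37.8 under sham and 3.0, 0 and 0 under imiquimod. Splicing factors and hnRNPs as a list were balanced, with 20 positive and 22 negative of 42 and a median of -0.04, or -0.18 without sham replicate 2.

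Noncoding RNAs that host small nucleolar RNAs differed among themselves, and values of 4 are given here beside Malat1. Gas5 (Entrez 14455, chromosome 1, 161034601 to 161038539) was at 25.4, 14.6 and 15.6 under sham and at 43.8, 34.0 and 58.7 under imiquimod, with no overlap (1.26 ± 0.54, limma adjusted p = 0.996). Snhg3 was at 2.21, 0 and 0 under sham and 9.51, 5.59 and 11 under imiquimod, also apart. Zfas1 was listed at 0 in sham replicates 1 and 3 and stood at 18.6 in replicate 2, against 19.3, 13.3 and 21.4 under imiquimod, so sham replicate 2 overlapped. Snhg8, named after its values were seen, was at 42.6, 46.5 and 69.8 under sham and 36.3, 52.7 and 59.0 under imiquimod, with full overlap (-0.10 ± 0.50). Malat1, an abundant nuclear RNA (Entrez 72289, chromosome 19, 5795690 to 5802672), was at 1267, 1196 and 1193 under sham and at 859, 1075 and 742 under imiquimod. All imiquimod values were lower, with a log2 fold change of -0.47 ± 0.18 (limma adjusted p = 0.956). Of 7 tested long noncoding RNAs, 5 were positive and 2 negative and the median was 0.75, or 1.12 without sham replicate 2.

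Genes of protein synthesis were mostly on the positive side by small amounts. Of 67 tested cytosolic ribosomal protein genes, 50 were positive and 17 negative, the median was 0.35 and 1 had an unadjusted p under 0.05. In 8 ribosomal protein genes the imiquimod values lay wholly above the sham values, and in 3 wholly below. Over all genes tested 56% were positive, 3.37% had an unadjusted p under 0.05, 6.11% lay wholly above and 5.6% wholly below. Their summed value was 2240, 1710 and 1964 under sham and 2388, 2210 and 2380 under imiquimod, so the groups of sums overlapped through sham replicate 1. Without sham replicate 2 the median was 0.18, and that of the translation factors described next was 0.32. Many ribosomal protein genes have processed copies in the genome, and how the authors counted reads shared with them is not given in the sources used here.

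Translation factors gave 16 positive and 5 negative of 21 tested, a median of 0.45, and 7 genes with all imiquimod values above all sham values against 0 below. The shares over all genes tested were 56% positive, 6.11% wholly above and 5.6% wholly below. Their summed value was 354, 304 and 358 under sham and 497, 439 and 526 under imiquimod. These sums did not overlap between the groups. Eef1b2, a subunit of the exchange factor that recharges the elongation factor eEF1A (Entrez 55949, chromosome 1, 63176831 to 63180486), was at 44.5, 6.57 and 28.3 under sham and at 46.4, 50.4 and 75.9 under imiquimod (1.41 ± 0.50, limma adjusted p = 0.956). The highest sham value was just under the lowest imiquimod value, and without sham replicate 2 the log2 fold change was 0.65. Eef1d, another subunit of the same complex, was at 10.3, 0 and 1.26 under sham and at 15.2, 19.6 and 19.5 under imiquimod, with no overlap (2.69 ± 1.05, limma adjusted p = 0.964). A further 2 members, chosen after their values were seen, were also apart: Pabpc1, the cytoplasmic poly(A)-binding protein, at 40.7, 23.9 and 25.2 against 60.1, 47.5 and 50.4, and Eif4g2, an initiation factor, at 24.7, 29.0 and 25.8 against 41.9, 43.5 and 48.2.

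Growth and division genes were mostly positive as well, beside 56% positive over all genes tested, with medians that depended on single sham libraries. Ribosome biogenesis and Myc target genes were positive in 12 of 14, with a median of 0.37 and no gene at an unadjusted p under 0.05. Npm1, the nucleolar chaperone nucleophosmin, was at 19.1, 17.5 and 20.1 under sham and 34.6, 40.2 and 41.2 under imiquimod, well apart (0.99 ± 0.52, limma adjusted p = 0.996). DNA replication genes were positive in 7 of 11 with a median of 0.66, or 0.54 without Mcm5, which was listed at 0 in all sham libraries. Mcm3, a subunit of the replicative helicase, was at 0, 0 and 1.89 under sham and 9.30, 2.10 and 4.54 under imiquimod. Mitosis genes were positive in 7 of 9 with a median of 0.54. Cks1b, a cofactor of cyclin-dependent kinases, was at 5.51, 0 and 1.26 under sham and 8.51, 6.29 and 12 under imiquimod. All 6 tested tubulin genes were positive, with a median of 0.29, and the summed tubulin value overlapped between groups at 90.4, 62.6 and 77.5 against 89.4, 109 and 97.3. Without sham replicate 2 the medians were -0.02 for ribosome biogenesis, 0.29 for DNA replication and 0.25 for mitosis genes, and without sham replicate 1 that of the DNA replication genes was -0.09.

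Chaperone, proteasome and respiration genes had medians of 0.32 to 0.48 and no member with an unadjusted p under 0.05. Endoplasmic reticulum chaperones and unfolded protein response genes were positive in 10 of 16 (median 0.48), and their summed value was 161, 172 and 175 under sham and 208, 227 and 257 under imiquimod, without overlap. Sdf2l1, an endoplasmic reticulum protein of the stress response, had the lowest p of that list and was at 0, 0 and 1.26 under sham and 1.0, 5.59 and 34.7 under imiquimod. Cytosolic chaperones were positive in 12 of 18 (median 0.40) and proteasome subunits in 7 of 10 (median 0.45). Hsp90ab1, the constitutive cytosolic Hsp90, was at 110, 49.3 and 98.8 under sham and 104, 101 and 154 under imiquimod. Oxidative phosphorylation genes were positive in 17 of 30 (median 0.32), close to the 56% of all genes. Atp5g3, a subunit of the ATP synthase ring, was at 19.5, 16.4 and 40.9 under sham and 43.6, 52.7 and 32.8 under imiquimod. Without sham replicate 2 the medians were -0.03 for endoplasmic reticulum genes, -0.09 for cytosolic chaperones, 0.06 for the proteasome and -0.08 for oxidative phosphorylation.

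**Figure D3:**
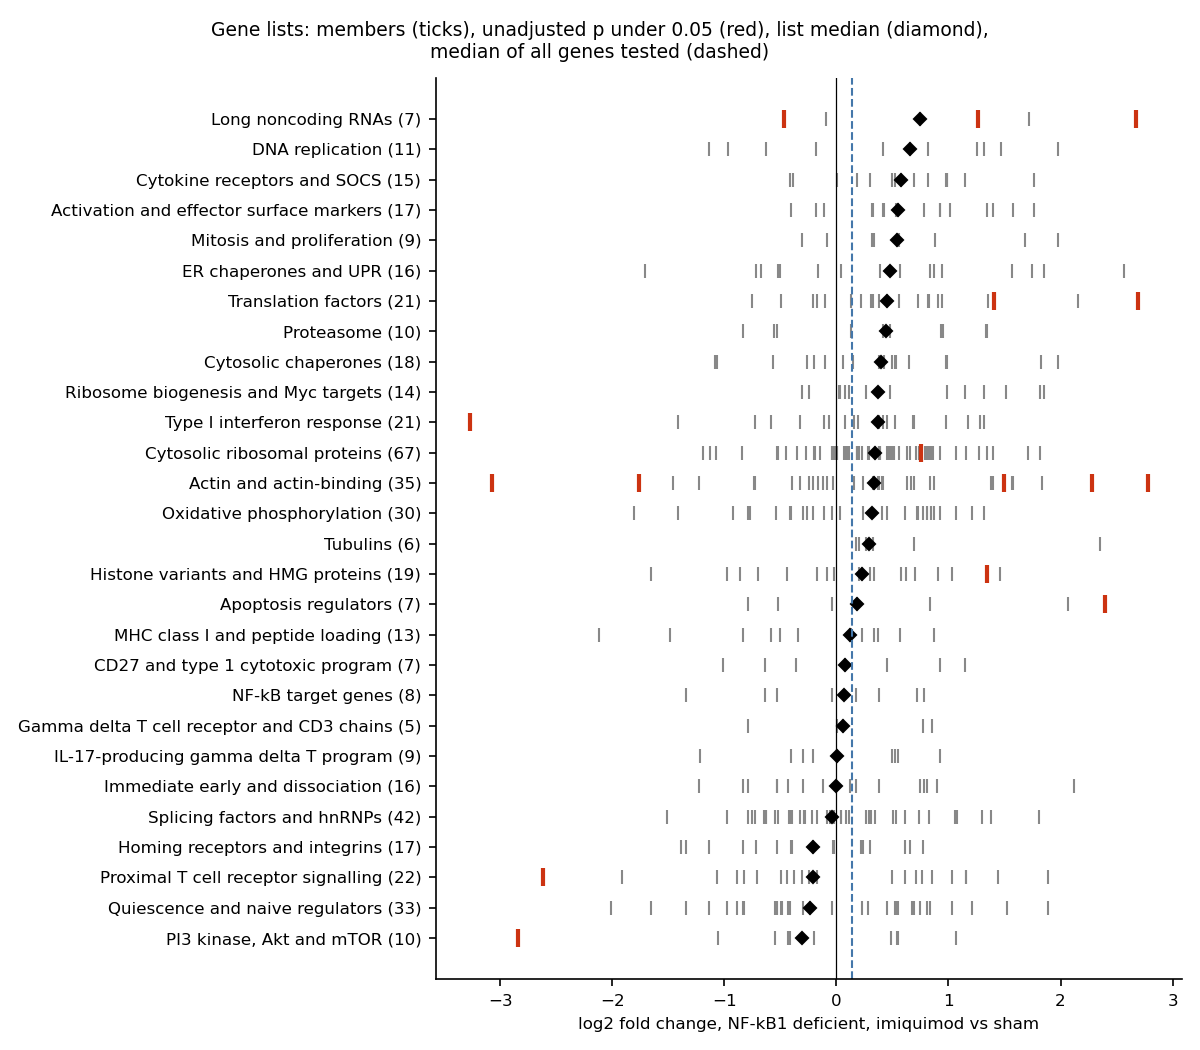
Log2 fold change of list members in NF-kB1-deficient cells, imiquimod against sham, on the horizontal axis, with 1 line per list and the number of tested genes in brackets. Ticks are genes, red ticks have an unadjusted p under 0.05, diamonds are list medians and the dashed line is the median of all genes tested, 0.14. List medians lie between -0.30 (PI3 kinase, Akt and mTOR) and 0.75 (long noncoding RNAs), and members of most lists lie on both sides of 0.

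The plot of gene lists places these medians beside those of T cell identity and regulation, which lay near 0. Gamma delta receptor and CD3 chains had 4 positive and 1 negative of 5 tested (median 0.06). Cd3d, a CD3 chain named after its values were seen, was at 17.6, 7.66 and 6.29 under sham and 14.1, 9.08 and 37.6 under imiquimod. Trdc, Trdv4 and Tcrg-V4, the gene symbols closest to the chains used for sorting, were listed at 0 in all 6 libraries. Tcrd, given above, and the gamma constant-region gene Tcrg-C2 were above 0 in all 6. Tcrg-C2 was at 12.5, 1.09 and 11.3 under sham and 22.4, 13.6 and 5.03 under imiquimod. The Tcrb locus was higher than Tcrd in each library, at 88.0, 91.5 and 83.7 under sham and 80.9, 79.5 and 72.7 under imiquimod. The IL-17-producing gamma delta program had 5 positive and 4 negative of 9 (median 0.00), and the CD27 and type 1 cytotoxic program 4 and 3 of 7 (median 0.07). Cd27, the costimulatory receptor of interferon-producing gamma delta T cells, was at 27.6, 23.5 and 18.2 under sham and at 19.4, 76.1 and 21.1 under imiquimod. Imiquimod replicate 2 was high and the rest overlapped.

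Several genes of the interleukin 17 program were at or near 0 in deficient cells under both creams, and others were not. Il17a was listed at 0 in all 6 libraries. Il17f was listed at 0 in the 3 sham libraries and stood at 5.51, 0 and 5.51 under imiquimod. Ccr6, a homing receptor of these cells, was above 0 only in imiquimod replicate 1 at 6.01, and Il23r, the receptor for interleukin 23, in none. Cd163l1, a scavenger receptor of IL-17-producing gamma delta T cells, was at 12.5, 0 and 11.7 under sham and 0, 2.79 and 2.59 under imiquimod. Maf, another marker of these cells, was at 4.41, 7.66 and 1.26 under sham and 11.8, 3.49 and 0 under imiquimod. The list of the program summed to 150, 160 and 103 under sham and 147, 111 and 151 under imiquimod. Low values were not limited to deficient cells. Il17a was listed at 0 in the 6 wild-type libraries too. Wild-type Il17f was listed at 0 in the 3 sham libraries and stood at 0, 6.32 and 33.7 under imiquimod. Wild-type Ccr6 was at 0, 2.44 and 8.69 under sham and 0, 6.32 and 0 under imiquimod. Wild-type Il23r was above 0 only in imiquimod replicate 2, at 6.84. In libraries of this depth a gene listed at 0 was below detection and cannot be called absent.

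Among the tested NF-kB genes and their targets none had separate groups. Nfkb1 itself was at 8.82, 1.09 and 2.52 under sham and 5.41, 6.64 and 5.84 under imiquimod (0.74 ± 1.19). Which exons were altered is not stated, so reads of its 3' end check nothing about the genotype. Nfkbia was at 25.4, 52.0 and 52.8 under sham and at 67.2, 47.5 and 31.8 under imiquimod (0.18 ± 0.48). Tnfaip3, the deubiquitinase A20, lay under the filter and was not tested; it was at 0, 0 and 4.40 under sham and 7.01, 6.64 and 18.8 under imiquimod, all 3 above the sham values. Nfkb2 reached at most 8.81 and Rela 8.82 in any of the 6 libraries, and Rel 2.21. Of 8 tested NF-kB target genes 4 were positive and 4 negative (median 0.07).

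Cytokine receptor and activation genes were mostly positive, homing genes were mostly negative, and quiescence genes were split. Over all genes tested 56% were positive. Cytokine receptor and SOCS genes were positive in 13 of 15 (median 0.57) and activation markers in 14 of 17 (median 0.55), with no gene of either at an unadjusted p under 0.05. Tnfrsf1b, the type 2 tumour necrosis factor receptor, had the lowest p in both and was at 0, 0 and 9.44 under sham and 1.0, 9.78 and 17.8 under imiquimod. Homing receptors and integrins were positive in 6 of 17 (median -0.21), and their summed value was 344, 388 and 340 under sham and 249.1, 262 and 307 under imiquimod, without overlap. Klf2, a factor that keeps T cells quiescent and able to leave the node, was at 53.7, 32.8 and 64.2 under sham and 26.0, 40.5 and 18.2 under imiquimod, with overlap. Quiescence and naive regulators gave 15 positive and 18 negative of 33 (median -0.24, or 0.06 without imiquimod replicate 1). Tcf7, a factor of naive T cells, was at 19.8, 15.9 and 23.9 under sham and 13.3, 18.9 and 0 under imiquimod. In bulk RNA of sorted cells, fewer cells of a type and less RNA per cell cannot be told apart.

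Immediate early genes were split 8 to 8, and Pim1, a survival kinase induced by cytokines, had the lowest p of them at 9.20, 9.85 and 0 under sham and 14.9, 26.1 and 20.1 under imiquimod, without overlap. Xiap, an inhibitor of caspases, was at 0, 1.09 and 1.26 under sham and at 11, 5.59 and 7.78 under imiquimod (2.40 ± 1.17, limma adjusted p = 0.996). It was the single apoptosis regulator of 7 with an unadjusted p under 0.05, a p that 3.37% of all genes tested reached. Anp32b, a histone chaperone, was the single one of 19 histone and HMG genes, at 20.8, 13.1 and 3.15 under sham and at 24.5, 31.9 and 24 under imiquimod. Its groups were apart. Pkm, the last enzyme of glycolysis, was at 1.47, 0 and 2.52 under sham and 13.3, 6.99 and 4.54 under imiquimod, also apart, and only 2 of 21 glycolysis genes could be tested.

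Several of the lowest p belonged to genes outside every list. D17H6S56E-5 (Entrez 110956, chromosome 17, 34996678 to 35000774) was at 10.3, 24.1 and 8.18 under sham and at 66.8, 40.5 and 46.1 under imiquimod. No values overlapped, and the means were 14.2 ± 8.64 and 51.1 ± 13.9 (SD, n = 3 each) with a log2 fold change of 1.89 ± 0.59 (limma adjusted p = 0.650). Prkar1a, a regulatory subunit of protein kinase A, was at 14.0, 5.47 and 3.78 under sham and 24.04, 19.6 and 27.9 under imiquimod. Fam107b was at 9.56, 0 and 0 under sham and 16.5, 18.1 and 11 under imiquimod. Both genes were higher in every imiquimod library. Stk24, a kinase of the Ste20 family, was at 13.6, 24.1 and 20.8 under sham and 4.76, 9.08 and 0 under imiquimod. Pfdn2, a subunit of the prefoldin chaperone, was at 22.1, 38.3 and 22.7 under sham and 6.76, 10.5 and 3.89 under imiquimod. These last 2 genes were lower in every imiquimod library.

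A listed 0 marked 736 of the 1571 tested genes in at least 1 of the 6 libraries. In 5 genes all sham libraries were listed at 0 and all imiquimod libraries were above it, and 1 gene showed the reverse. Degs1, a desaturase of ceramide synthesis, stood at 17.0, 4.19 and 7.46 under imiquimod. Mga, a transcription factor that pairs with Max, stood at 3.51, 17.0 and 10.4. The other 3, named after their values were seen, were Igk at 2.0, 27.2 and 28.7, Ppp3cb at 4.61, 3.84 and 5.90, and Ankrd40 at 1.5, 2.10 and 8.43. Qdpr, which recycles tetrahydrobiopterin, was the reverse case, at 7.35, 7.66 and 8.81 under sham and listed at 0 under imiquimod.

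Igk is the immunoglobulin kappa locus, and summed marker levels of other cell types are given beside it. The plasma cell list of 10 genes summed to 0 in the 3 sham libraries and to 2.25, 4.89 and 21.7 under imiquimod, and the B cell list of 19 genes to 0, 0 and 1.26 against 0, 0 and 12.3. In imiquimod replicate 2, where Igk stood at 27.2, the plasma cell sum was Xbp1 alone and the B cell sum was 0. Jchain, at 7.14, and Mzb1, at 4.54, were above 0 only in imiquimod replicate 3, and the B cell sum there came from the MHC class II genes H2-Aa, H2-Ab1 and H2-Eb1. Cd79a, Ms4a1 and Igkc were listed at 0 in all 6 libraries. Red cell and platelet markers summed to 0, 0 and 1.26 under sham and 4.76, 0 and 50.6 under imiquimod, most of it haemoglobin in imiquimod replicate 3. Markers of NK cells and innate lymphoid cells summed to 3.68, 2.60 and 13.8 under sham and 21.8, 23.8 and 5.19 under imiquimod, most of the latter being Gata3, which T cells also express. Macrophage and dendritic cell markers summed to 24.2, 13.1 and 19.5 against 12.8, 24.1 and 10.4. Alpha beta T cell markers summed to 109, 106 and 88.0 against 84.6, 85.8 and 90.3, most of it the Tcrb locus. The Tcra locus was above 0 in all 6 libraries, at 3.68, 14.2 and 3.08 against 2.2, 6.29 and 6.6. Cd8b1 was above 0 in 4 of the 6, highest in sham replicate 1 at 17.3 and imiquimod replicate 3 at 8.43. Cd4 and the constant-region genes Trac, Trbc1 and Trbc2 were listed at 0 throughout. The constant-region genes Trdc and Igkc were too, although the Tcrd and Igk loci had values above 0. A listed 0 in any of these constant-region genes therefore shows nothing here, although Tcrg-C2, another constant-region gene, had values above 0. The part of these other cell types in the results was not tested.

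The response of deficient cells was compared with that of wild-type cells in the same fit, where 51 genes (3.25%) were called. The absolute log2 fold change had a median of 0.67 in deficient and 1.06 in wild-type cells. An unadjusted p under 0.05 was reached by 3.37% of genes in deficient cells against 19.9% in wild-type cells, and groups did not overlap in 11.7% against 21.5%. Depth in wild-type cells was about 30541, 69469 and 27950 reads under sham and 35175, 35634 and 20493 under imiquimod. On the first principal component of all 12 libraries wild-type imiquimod replicates 1, 2 and 3 lay at 34.6, 20.4 and 59.4. The part of depth and of single libraries in this comparison was not tested. The 26 genes called higher in wild-type cells had a median log2 fold change of 3.38 there and 0.33 in deficient cells, where 18 were positive. The 25 genes called lower in wild-type cells had a median of -2.83 there and 0.01 in deficient cells, where 13 were positive. Since these genes were chosen for their wild-type change, their larger wild-type values are partly set by the choice. In deficient cells 5 of the 26 and 3 of the 25 had separate groups in the same direction. Over all genes tested the shares in 1 direction were 6.11% wholly above and 5.6% wholly below.

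List medians in wild-type cells, taken from the same fit, were farther from 0 for growth and for T cell genes. DNA replication genes had a median of 3.24 in wild-type and 0.66 in deficient cells, ribosome biogenesis genes 2.28 and 0.37, and mitosis genes 2.5 and 0.54. Proximal receptor signalling genes had -1.38 and -0.21, the CD27 and type 1 program -2.21 and 0.07, and the type I interferon list -1.65 and 0.37. Ribosomal proteins were alike in median, at 0.39 and 0.35, and so were activation markers, at 0.50 and 0.55. The filter used the mean over all 12 libraries, so a gene low elsewhere could enter through high wild-type imiquimod values. Mcm3, for example, had means of 0.94 under sham and 16.6 under imiquimod in wild-type cells, and 0.63 and 5.31 in deficient cells. Only 11 of 38 DNA replication genes and 9 of 38 mitosis genes were tested. The wild-type medians of growth genes may thus be partly set by the filter. Differences between these medians were not tested.

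**Figure D4:**
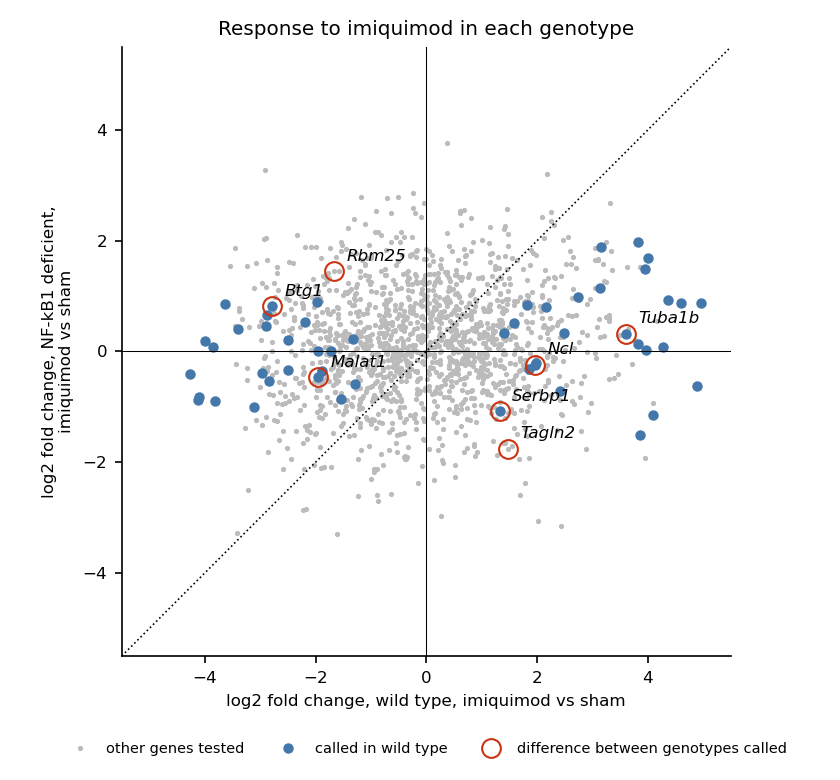
Log2 fold change under imiquimod in wild-type cells (horizontal axis) and in NF-kB1-deficient cells (vertical axis) for 1571 genes. Blue points are the 51 genes called in wild-type cells, red circles the 7 genes whose responses differed between genotypes, and the dotted line marks equal responses. The 51 blue points spread from -4.27 to 4.96 along the horizontal axis and from -1.51 to 1.98 along the vertical axis.

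The test of the difference itself called 7 of 1571 genes (0.446%), and an unadjusted p under 0.05 was reached by 10.8%. Tuba1b, an alpha tubulin, was at 21.3, 25 and 21.8 in deficient sham libraries and 28, 37.0 and 22.5 under imiquimod, groups that overlapped. Its deficient log2 fold change was 0.32 (95% interval -0.73 to 1.37), that in wild-type cells was 3.61, and the difference was -3.29 ± 0.75 (limma adjusted p = 0.0110). Ncl, described above, had 1.96 in wild-type and -0.24 in deficient cells, a difference of -2.21 ± 0.51 (limma adjusted p = 0.0110). Btg1, an antiproliferative gene, was at 32.3, 25.5 and 16.4 under sham and 44.7, 36.7 and 47.4 under imiquimod in deficient cells (0.81 ± 0.60), against -2.78 in wild-type cells. Its difference was 3.59 ± 0.84 (limma adjusted p = 0.0113).

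Tagln2, Serbp1 and Rbm25 went opposite ways in the 2 genotypes. Their sham means differed as well, at 18.8, 45.6 and 56.0 in wild-type and 53.5, 91.7 and 15.3 in deficient cells. The part of these sham levels was not tested. Tagln2 had a log2 fold change of -1.76 in deficient and 1.47 in wild-type cells, a difference of -3.23 ± 0.78 (limma adjusted p = 0.0137). Serbp1 had -1.08 and 1.33, a difference of -2.40 ± 0.56 (limma adjusted p = 0.0110). Rbm25 had 1.45 and -1.67, a difference of 3.12 ± 0.78 (limma adjusted p = 0.0214). Of these, Serbp1 was also called within wild-type cells, and none was called within deficient cells. Malat1 was lower under imiquimod in both genotypes, at log2 fold changes of -0.47 in deficient and -1.96 in wild-type cells, and the difference of 1.49 ± 0.25 had a limma adjusted p = 2.09e-05.

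Cd27, Lck, Calr and H2-K1, which were called in wild-type cells, show how wide the bounds on such differences were. Cd27 had a log2 fold change of 0.45 in deficient and -2.89 in wild-type cells, and the difference of 3.35 had a limma adjusted p = 0.0813. H2-K1 had 0.23 and -1.32, with a difference of 1.55 (limma adjusted p = 0.0869). Lck had -0.89 and -3.82, with a difference of 2.93 (limma adjusted p = 0.290). Calr, an endoplasmic reticulum chaperone, was at 8.09, 0 and 12.7 under deficient sham and 11.3, 2.79 and 15.4 under imiquimod, and its difference of -4.08 had a limma adjusted p = 0.310. None of these 4 differences passed the threshold.

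Of the 53 genes with an unadjusted p under 0.05 in deficient cells, all 53 kept their sign when any 1 of the 6 libraries was left out. They were picked for a low p in these same libraries, so a kept sign was largely set in advance. Their share of the genes tested, 3.37%, lay below the p threshold of 0.05 that picked them. An unadjusted p under 0.05 was held throughout by 6 of them, Cnn2, D17H6S56E-5 and Rbm25 on the higher side and Pik3r1, Tagln2 and Isg20 on the lower side. Libraries of the same group correlated across tested genes at 0.31 to 0.54 and libraries of different groups at 0.38 to 0.50. These correlations are across genes, and within-group values were not set apart from between-group values. Of the 28 lists with at least 5 tested genes, the medians of ribosomal proteins, translation factors, proteasome, mitosis, tubulins, actin, cytokine receptors and activation markers stayed positive, and that of homing receptors stayed negative, under every alternative run. Each of the other lists changed sign under at least 1. Without sham replicate 2 the medians were 0.48 for the CD27 and type 1 program, 0.35 for NF-kB targets, 0.25 for the IL-17 program, 0.38 for cytokine receptors, 0.09 for gamma delta receptor and CD3 chains and -0.10 for homing receptors.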

How the data were processed

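Sorted cells were lysed in Trizol and 3' tag libraries were made with the QuantSeq FWD kit, per the labels' protocols. The deposited table holds log2 values that the authors made from normalized read counts of 45796 genes in 12 libraries, with a gene without reads listed at 0; that scale was read from the values. The submitters' processing notes name the build mm10. The aligner, counter, annotation and normalization method are not named in any source used here.

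Values were returned to the linear scale, genes with a mean of at least 5 were kept (1571), and log2(value + 1) was fitted with limma 3.58.1 in R 4.3.3 over all 12 libraries with 4 group means, a variance trend and robust moderation. P-values were adjusted by the Benjamini-Hochberg method over all 1571 genes, with a threshold of 0.05. The deficient, wild-type and between-genotype contrasts came from this fit, which was tested on simulated data. Depth was estimated as a library's summed value divided by the step between its low values, and its part in the precision was not tested. Errors after ± beside means are SD and beside log2 fold changes SE.

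Named genes were the 12 with the lowest p in each direction, up to 4 members of each list with an unadjusted p under 0.05 or else the member with the lowest, the 8 with the highest mean, up to 6 per direction with a called difference between genotypes, and a set of NF-kB, interleukin 17, receptor and control genes. The members and the 43 gene lists were chosen with earlier results of these data known. Of the tested genes 1568 matched RefSeq by Entrez ID. Alternatives covered the pseudocount, the filter, the scaling, the samples fitted, the variance model, the replicate block and each library left out. Some genes that the naming rule covers are not reported here.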

Additional observations from a re-analysis of the deposited data

Results flagged for a closer look

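The imiquimod response of 7 genes differed between genotypes by a test of the difference itself, the deficient minus the wild-type log2 fold change in the limma fit. Malat1 differed by 1.49 (95% interval 1.0 to 1.98, limma adjusted p = 2.09e-05), with wild-type means of 1240 under sham and 325 under imiquimod. Tuba1b differed by -3.29 and Ncl by -2.21 (limma adjusted p = 0.0110 for each). In wild-type cells Tuba1b went from 9.59 ± 1.55 to 139.5 ± 64.3 and Ncl from 39.4 ± 0.296 to 164 ± 57.6 (SD, 3 libraries each). Serbp1, with -2.40 (limma adjusted p = 0.0110), and Tagln2, with -3.23 (limma adjusted p = 0.0137), were lower under imiquimod in deficient and higher in wild-type cells. Sham means differed between genotypes too, at 45.6 in wild-type and 91.7 in deficient cells for Serbp1 and 18.8 and 53.5 for Tagln2. Imiquimod means in the same order were 122 and 42.8 for Serbp1 and 55.7 and 14.4 for Tagln2. Btg1 differed by 3.59 (limma adjusted p = 0.0113) and Rbm25 by 3.12 (limma adjusted p = 0.0214). Wild-type means of Btg1 were 47.9 ± 14.5 and 6.01 ± 1.33, and those of Rbm25 were 56.0 ± 2.12 and 19.65 ± 12.7, under sham and imiquimod. Deficient sham means were 22.7 for Tuba1b, 73.3 for Ncl, 24.8 for Btg1, 15.3 for Rbm25 and 1218 for Malat1. The part of the sham levels in these differences was not tested.

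Of 20 alternative settings, Malat1 was called in 19, Tuba1b in 17, Ncl and Tagln2 in 15, Serbp1 and Btg1 in 14 and Rbm25 in 9. The sign of each difference was the same in all 20.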

How the results depend on the processing

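In deficient cells 0 genes were called under every alternative, each library left out included, except in the fit of the 6 deficient libraries alone, which called 1, Pik3r1, at a log2 fold change of -2.84. Genes with an unadjusted limma p under 0.05 ranged from 38 without deficient imiquimod replicate 3 to 93 without deficient sham replicate 1, and were 83 in the 6 libraries alone, 14 of 242 with a mean of at least 20 and 218 of 9732 without a filter. Genes called for the difference between genotypes numbered 7 in the fit reported, 13 with a mean of at least 20, 1 without a filter and 0 without the variance trend and robust moderation, where 18 genes were called in wild-type cells. Leaving out 1 library gave 2 to 12, with 2 without deficient sham replicate 3 or wild-type imiquimod replicate 3, 4 without wild-type sham replicate 1 or deficient imiquimod replicate 2, and 12 without wild-type imiquimod replicate 2. Log2 fold changes that changed sign with 1 library left out were those of Tcrg-C2 (-0.0197 to 1.39), Nfkbia (-0.16 to 0.45), Cd27 (-0.17 to 0.79), Tcrd (-0.25 to 0.17), Calr (-0.29 to 1.6) and LOC100503946 (-0.53 to 0.0189); the cause was not tested. The remaining 1021 gene values, over 71 genes, kept their sign and side of the threshold. Of the list medians 268 moved by less than the spread between the 3 deficient imiquimod libraries and 94 by more. That spread was the SD of each library's list median against the mean of the sham libraries. The spread between sham libraries did not enter it. Setting values under 2 to 0, an alternative chosen after seeing the data, gave 0 calls in deficient cells, 56 genes at an unadjusted p under 0.05, and 8 calls for the difference. With the replicate block, 0 genes were called in deficient cells and 7 for the difference; same-numbered libraries did not deviate together, so the numbers were not taken as pairs. Most genes had intervals too wide to show a 4-fold change, and the part of depth in that width was not tested.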
